A study of Mus musculus with 6 samples.

Results

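Dentate neuroepithelium of mice homozygous for a floxed Sox11 allele was compared with wild type tissue, gene by gene. The comparison used 4 of the 6 libraries of the study, 2 wild type and 2 homozygous (SOX11f/f, which the labels call homodeficient), all labelled E14. The remaining 2 libraries were heterozygous (SOX11f/+). They entered no fit but the alternative named below, and their levels are given beside some results. Of 35274 genes in the deposited table, 14490 had a mean of at least 1 TPM (transcript abundance corrected for transcript length and scaled to the same total in each library) over the 4 libraries and were tested. Just outside that limit lay Cd59b with a mean of 0.9975 TPM, and just inside it Depdc7 with 1.0 TPM. The sources used here name no Cre driver, so the cells in which the floxed allele was cut are not known, and they do not say whether a library came from 1 embryo, from a pool or from separate litters. Spread between replicates may therefore be technical only, and p-values refer to these libraries.

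Sox11 encodes a transcription factor of the SoxC group, together with Sox4 and Sox12, and is active in neural precursors as they become neurons. The dentate neuroepithelium is the strip of the medial cortical wall that gives rise to the granule neurons of the hippocampal dentate gyrus. It borders the cortical hem, a signalling centre of the dorsal midline that secretes Wnt and BMP proteins, and the choroid plexus, an epithelium that makes cerebrospinal fluid. Multiciliated cells, such as ependymal and choroid plexus cells, carry bundles of motile cilia whose core, the axoneme, is built from dynein arms, radial spokes and linking proteins.

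Levels are given below as wild type replicates 1 and 2 against homozygous replicates 1 and 2. Genes used at the labelled site were present in all 4 libraries. The dentate granule gene Prox1 stood at 175 and 110.5 against 76.5 and 74.1 TPM, Neurod1 at 392 and 234 against 173 and 161 TPM, and the medial cortical gene Lhx2 at 304 and 239 against 225 and 233 TPM. RNA of mature brain was also present in libraries labelled E14. Gfap, an astrocyte filament gene, stood at 304 and 268 against 345 and 576 TPM, and Slc17a7, a glutamate transporter of mature neurons, at 79.8 and 189.6 against 240.2 and 393 TPM. Of 14 listed thalamus genes, 13 were tested and none passed. Their summed level was 637.2 and 441.3 against 309.5 and 366.1 TPM, with 6 of the 13 higher and 7 lower in mean log2 level, and the defining gene Gbx2 had at most 1.03 TPM in any library; the part of thalamic RNA in the results was not tested. Across the tested genes, which are not independent of each other, the wild type pair correlated at r = 0.985 and the homozygous pair at 0.979.

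Sox11 itself fell from 192 and 130.2 TPM to 5.23 and 5.06 TPM, a mean 161 ± 43.7 against 5.14 ± 0.12 TPM (SD, n = 2 each), 31.3 times lower (log2 fold change -4.69 with SE 0.20 and adjusted p = 0.000888 in limma). The gene is on chromosome 12, 27334264 to 27342574, minus strand, of GRCm38. Both homozygous libraries lay far below both wild type ones, and the heterozygous libraries lay between, at 56.1 and 50.1 TPM. The other SoxC genes did not pass the test. Sox4 was at 297 and 215 against 212 and 191 TPM (log2 fold change -0.32 with SE 0.16 and adjusted p = 0.327 in limma), and both homozygous values were below both wild type values. Sox12 was at 63.9 and 62.2 against 65.9 and 54.3 TPM (log2 fold change -0.07 with SE 0.13 and adjusted p = 0.774 in limma), and the groups overlapped. Of 10 Sox genes of progenitors and glia, none passed in either direction; Sox2, a gene of neural stem cells, was at 93.5 and 72.95 against 104 and 94.8 TPM, and the list's median log2 fold change was 0.24.

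Across all tested genes, 334 rose and 62 fell in homozygous libraries (limma, adjusted p under 0.05), which is 2.31% and 0.428% of the genes tested. Counts of called genes in the lists below are to be read against these shares. The risen genes were mostly faint in wild type: their median wild type mean was 1.08 TPM, 158 of them were under 1 TPM there and so passed the limit only through the homozygous libraries, and 224 were at least 4 times higher. The fallen genes were well expressed and changed less, with a median wild type mean of 80.1 TPM and a median log2 fold change of -0.85 against 1.88 for the risen ones. Motile cilium genes made up the largest block of the risen genes, and genes of young neurons and axon guidance recurred among the fallen ones. Of the risen and fallen genes, 329 and 53 were protein-coding.

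These counts rest on few libraries. With the heterozygous libraries added to the estimate of the spread, 3 genes rose and 3 fell, 0.0207% of the genes in each direction: Sox11, Rps7 and AC166358.6 fell, and Ccdc153, Tmem212 and Gm6472 rose. Without wild type replicate 1 the counts were 21 and 2, and without wild type replicate 2 they were 90 and 34. Of the 44 gene lists used below, 25 held at least 1 called gene; 3 of these 25 held any with all 6 libraries, 4 without wild type replicate 1 and 12 without wild type replicate 2. The values of the 4 libraries are therefore given for each main gene, and a count by separation alone is a weak one here, since in 23.4% of all tested genes both homozygous libraries were above both wild type ones and in 30.8% both were below. The plot of all genes shows the contrast between faint genes that rose and abundant genes that fell.

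**Figure D1:**
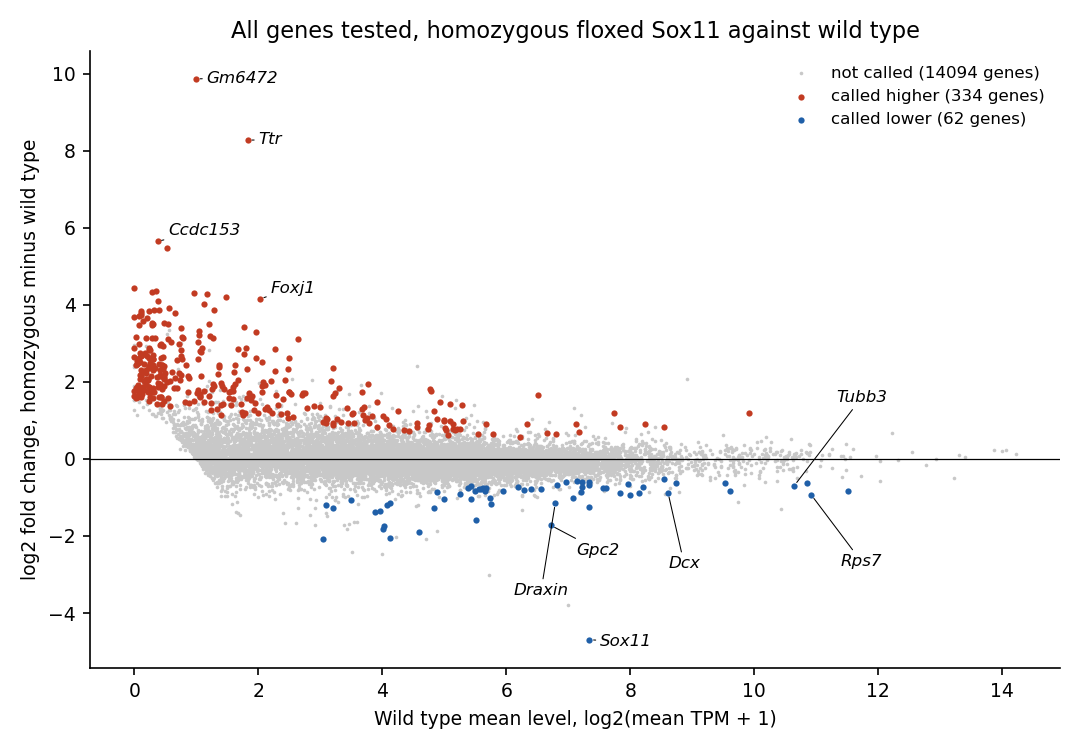
Each point is 1 of the 14490 tested genes, with the wild type mean level on the x axis as log2(mean TPM + 1) and the log2 fold change, homozygous minus wild type, on the y axis. The 334 genes called higher lie mostly at low wild type levels, the 62 called lower at high ones, and Sox11 stands lowest at -4.69.

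Genes of immature and migrating neurons were lower in homozygous tissue. Of 44 such genes, all tested, 8 fell and 0 rose, 40 of 44 had a lower mean log2 level, and the median log2 fold change was -0.35, against -0.04 over all 14490 genes. Both homozygous libraries were below both wild type ones for 35 of the 44 and above them for 1, against 30.8% and 23.4% of all tested genes. Dcx, which encodes the microtubule-binding protein doublecortin of migrating neurons, was at 388 and 391 against 236 and 188 TPM (log2 fold change -0.89 with SE 0.13 and adjusted p = 0.0201 in limma). Both homozygous values of Dcx were below both wild type values, by 1.84 times on average. Stmn1, encoding the microtubule-destabilising protein stathmin, was at 3128 and 2719 against 1752 and 1508 TPM (log2 fold change -0.84 with SE 0.13 and adjusted p = 0.0292 in limma). The wild type values of Stmn1 exceeded the homozygous ones by more than either pair differed. Islr2, a membrane protein of growing axons, was at 862 and 700.5 against 444 and 427 TPM (log2 fold change -0.83 with SE 0.12 and adjusted p = 0.0229 in limma).

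Gpc2, which encodes a heparan sulphate proteoglycan of the growing nervous system, changed most in that list, with 123 and 85.6 against 36.4 and 25.4 TPM (log2 fold change -1.72 with SE 0.22 and adjusted p = 0.0147 in limma). Its lower wild type value was far above the higher homozygous value. Mtss1, an actin and membrane regulator, was at 315 and 273 against 183 and 168 TPM (log2 fold change -0.74 with SE 0.11 and adjusted p = 0.0245 in limma). Further members that fell, named after their values were seen, were Dpysl5 at 411 and 439 against 294 and 260.1 TPM and Ina at 161 and 159.8 against 109 and 91.1 TPM. The 8 calls were 0 with all 6 libraries, 0 without wild type replicate 1, 2 without wild type replicate 2 and 11 without homozygous replicate 1. In bulk tissue, fewer cells of a type and less RNA per cell cannot be told apart.

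Tubulins are the subunits of microtubules. Among 15 tested of 16 listed genes, 2 fell, 11 were lower in mean log2 level, and the median log2 fold change was -0.22. Tubb3, the neuron-specific class III beta tubulin, was at 1471 and 1728 against 1003 and 965 TPM (log2 fold change -0.70 with SE 0.12 and adjusted p = 0.0365 in limma). Tubb5, a beta tubulin of proliferating and young cells, was at 1871 and 1808 against 1181 and 1193 TPM (log2 fold change -0.63 with SE 0.10 and adjusted p = 0.0312 in limma). In both genes the homozygous pair was tight and below the wild type pair. The main neuronal alpha tubulin Tuba1a was at 8963 and 10238 against 7119 and 6537 TPM and Tubb2b at 3239.7 and 3495 against 2576 and 2415 TPM; neither passed (limma adjusted p = 0.161 and 0.129). Tubb4b, a beta tubulin abundant in axonemes, lay on the other side at 300.5 and 279 against 399 and 406 TPM (log2 fold change 0.47 with SE 0.10 and adjusted p = 0.0594 in limma), separated but not past the threshold. The 2 tubulin calls became 0 with median-of-ratios scaling, without an intensity trend, and without wild type replicate 1, wild type replicate 2 or homozygous replicate 2.

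Among 28 neuronal RNA-binding protein genes, 1 fell, 22 were lower in mean log2 level and the median was -0.25. The fallen gene was Rbfox1, a splicing regulator of neurons, at 135 and 145 against 93.98 and 94.4 TPM (log2 fold change -0.56 with SE 0.10 and adjusted p = 0.0387 in limma). Ptbp2, which holds back adult neuronal exons in young neurons, was at 215 and 178 against 132 and 126 TPM and did not pass (limma adjusted p = 0.0603). Elavl3, encoding the HuC protein, was at 221 and 213 against 166 and 139 TPM and likewise did not pass (0.0849). Both genes were separated between genotypes. The call of Rbfox1 was lost with median-of-ratios scaling, without an intensity trend, with the replicate block and on leaving out any of the 4 libraries.

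A minority of axon guidance genes passed the test. Draxin, a secreted repulsive cue that binds the netrin receptor Dcc, was at 122 and 96.99 against 51.9 and 45.2 TPM (log2 fold change -1.15 with SE 0.15 and adjusted p = 0.0134 in limma; chromosome 4, 148098437 to 148130698). The 2 wild type libraries were both near or above 100 TPM and the 2 homozygous ones near 50 TPM. Draxin was the 1 called gene among 25 tested netrin, Slit-Robo and draxin genes, whose median log2 fold change was -0.13. The receptor Dcc was at 51.1 and 39.4 against 29.2 and 29.8 TPM (log2 fold change -0.59 with SE 0.15 and adjusted p = 0.114 in limma), separated but not past the threshold, and the Slit receptor Robo1 at 36.5 and 44.4 against 35.3 and 42.2 TPM, with overlapping groups.

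Of 31 semaphorin, plexin and neuropilin genes, 2 fell, 22 were lower in mean log2 level and the median was -0.35. Sema4c, a membrane-bound semaphorin, was at 57.8 and 46.4 against 25.5 and 24.5 TPM (log2 fold change -1.02 with SE 0.14 and adjusted p = 0.0193 in limma). The secreted Sema3c was at 167 and 127 against 84.5 and 75.4 TPM (log2 fold change -0.86 with SE 0.15 and adjusted p = 0.0379 in limma). Both ligands had homozygous values well under the lower wild type value. Neuropilin and plexin genes of the list did not pass: Nrp2 was at 169 and 161 against 117 and 116 TPM (limma adjusted p = 0.0513), Nrp1 at 128 and 143 against 103 and 78.3 TPM (0.11) and Plxna2 at 96.4 and 75.6 against 53.97 and 43.9 TPM (0.0595). Eph receptors and ephrins, which signal by contact between cells, had 2 fallen genes of 20 tested and a median of -0.24. Those were the receptors Epha4, at 256 and 243 against 148 and 169.8 TPM (log2 fold change -0.65 with SE 0.11 and adjusted p = 0.033 in limma), and Ephb2, at 78.8 and 65.04 against 41.5 and 44.8 TPM (log2 fold change -0.72 with SE 0.13 and adjusted p = 0.0459 in limma). The Eph list had 0 calls without an intensity trend and without wild type replicate 1, wild type replicate 2 or homozygous replicate 1.

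Adhesion molecules of the immunoglobulin superfamily on axons had 2 fallen genes and 0 risen of 34 tested, with 11 higher and 23 lower in mean log2 level and a median of -0.10. Cntn2, encoding the axonal glycoprotein TAG-1, was at 140.4 and 128 against 72.7 and 60.2 TPM (log2 fold change -1.01 with SE 0.13 and adjusted p = 0.013 in limma), and Igsf3 at 50.99 and 41.01 against 26.8 and 25.7 TPM (log2 fold change -0.78 with SE 0.15 and adjusted p = 0.0469 in limma). L1cam, an adhesion gene of the same axons, was at 105 and 118 against 115 and 108 TPM, with overlapping groups. The list had 0 calls without wild type replicate 1 or wild type replicate 2.

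Regulators of hippocampal neurons were examined by lineage. Of 24 dentate granule lineage genes, 3 fell (Dcx and Draxin, described above, and Zbtb20), 16 were lower in mean log2 level and the median was -0.43. Zbtb20, a zinc finger gene of hippocampal neuron identity, was at 161 and 136 against 90.2 and 86.8 TPM (log2 fold change -0.74 with SE 0.12 and adjusted p = 0.0283 in limma). Prox1, Neurod1 and the young granule cell gene Calb2 had every homozygous value below every wild type value, but wild type replicates differed widely and none passed. Calb2 was at 454 and 300.1 against 179 and 213 TPM, and limma adjusted p was 0.0907, 0.114 and 0.0767 in that order. Among 30 pyramidal and other glutamatergic genes, Nfib alone fell, a nuclear factor I gene needed for hippocampal development, at 287 and 222 against 124 and 139 TPM (log2 fold change -0.94 with SE 0.14 and adjusted p = 0.0244 in limma). Its relative Nfix was at 1045 and 779 against 541 and 584 TPM and did not pass (limma adjusted p = 0.0817), nor did Tbr1, at 93.9 and 61.2 against 39.8 and 46.1 TPM (0.107). Intermediate progenitor genes had no call among 17 tested, with Eomes at 90.05 and 52.6 against 39.7 and 54.2 TPM, 15 lower means and a median of -0.32. Cajal-Retzius genes, the early neurons of the cortical surface, had none of 14, with Reln at 532 and 267 against 187 and 262 TPM.

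The plot of levels sets 26 of the named genes side by side, with each library as its own point. Separation between the genotypes is small against the level for neuronal genes and very large for the cilium genes that follow.

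**Figure D2:**
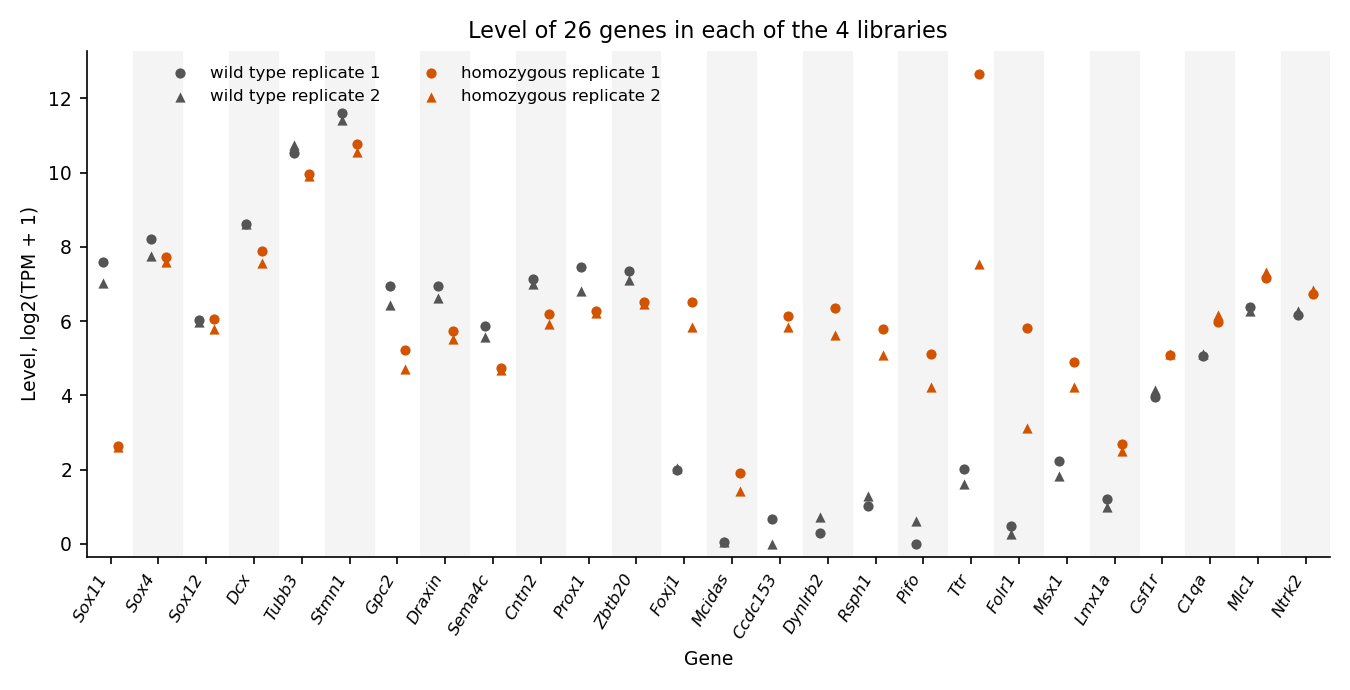
Level of 26 genes as log2(TPM + 1) in the 2 wild type (grey) and 2 homozygous (orange) libraries, circles for replicate 1 and triangles for replicate 2. Sox11 falls from 192 and 130.2 TPM to 5.23 and 5.06 TPM, neuronal genes such as Dcx fall modestly, and Foxj1, Ccdc153 and Ttr rise from near the bottom of the scale.

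Genes of motile cilia rose as a block in homozygous tissue. Of 118 listed axoneme genes, 112 were in the table and 105 were tested, and 78 of these rose while 0 fell. All 105 had a higher mean log2 level, with a median log2 fold change of 1.85. Both homozygous libraries were above both wild type ones for 100, against 23.4% of all tested genes. Only 54 of the 105 reached a wild type mean of 1 TPM, so the other members passed the limit through the homozygous libraries and had to differ; among the 54 the median was 1.42. The summed level of all 112 was 378.9 and 348.1 against 1769 and 1278 TPM. The rise was present in both homozygous libraries and larger in replicate 1. In the heterozygous libraries the sum was 2163 and 821.3 TPM.

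Ccdc153, a coiled-coil gene of ciliated cells, was at 0.59 and 0 against 69.2 and 56.05 TPM (log2 fold change 5.65 with SE 0.27 and adjusted p = 0.000888 in limma; chromosome 9, 44240676 to 44247306). It was the 1 axoneme gene also called with all 6 libraries. Dynlrb2, a light chain of dynein, was at 0.22 and 0.65 against 80.8 and 48.2 TPM (log2 fold change 5.48 with SE 0.29 and adjusted p = 0.00135 in limma). Both genes were under 1 TPM in each wild type library and over 40 TPM in each homozygous one. The radial spoke genes Rsph1 and Rsph4a were at 1.05 and 1.43 against 54.02 and 32.8 TPM and at 0.07 and 0.09 against 14.04 and 13.03 TPM (4.27 and 3.75 on the log2 scale, limma adjusted p = 0.00142 and 0.00142). Cfap52, an axonemal protein gene, was at 0.32 and 0.17 against 19.8 and 14.6 TPM (log2 fold change 3.85 with SE 0.24 and adjusted p = 0.00142 in limma). Tctex1d4, a dynein light chain relative, was listed at 0 in the whole wild type pair and reached 11.6 and 11.9 TPM in the homozygous ones.

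Tmem212, which lies outside the axoneme list, was also listed at 0 in wild type and stood at 21.9 and 19.9 TPM in homozygous libraries (limma adjusted p = 0.000888). Tmem212 thus entered the test only through the homozygous libraries and had to be higher there. Further members of the 15 largest rises were Pifo at 0 and 0.54 against 33.7 and 17.7 TPM, Lrrc23 at 1.24 and 2.32 against 69.3 and 35.3 TPM and Cfap126 at 2.25 and 0.64 against 41.4 and 26.02 TPM. Ak7, an adenylate kinase of cilia, was at 0.31 and 0.05 against 19.3 and 12.9 TPM, and Lrrc74b at 0.08 and 0.06 against 15.8 and 12.8 TPM. Each of these was at or under 2.5 TPM in wild type and above 12 TPM in homozygous tissue. Among axonemal dynein heavy chain genes, Dnah6 was at 0.1 and 0.04 against 6.64 and 5.04 TPM and Dnah9 at 1.63 and 1.84 against 12.1 and 6.17 TPM, both named after their values were seen. The 78 calls of the list were 1 with all 6 libraries, 5 without wild type replicate 1 and 26 without wild type replicate 2, against 77 and 87 without homozygous replicates 1 and 2. Its median log2 fold change was between 1.72 and 2.04 when any 1 of the 4 libraries was left out.

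Upstream of the axoneme, the list of multiciliated cell regulators had 4 risen genes and 0 fallen of 28 tested. Its median log2 fold change was 0.06, or -0.05 over the 23 genes with a wild type mean of at least 1 TPM, and 13 of the 28 were lower in mean log2 level. The 4 calls became 0 with all 6 libraries, 0 without wild type replicate 1 and 1 without wild type replicate 2. Foxj1, the forkhead transcription factor that switches on motile cilium genes, was at 3 and 3.14 against 90 and 56.7 TPM (log2 fold change 4.15 with SE 0.23 and adjusted p = 0.00142 in limma; chromosome 11, 116330704 to 116335399). Mcidas, encoding multicilin, was at 0.04 and 0.04 against 2.74 and 1.67 TPM (log2 fold change 1.60 with SE 0.29 and adjusted p = 0.0424 in limma). Deup1, which amplifies centrioles, was at 0.28 and 0.48 against 12.9 and 6.92 TPM (log2 fold change 2.93 with SE 0.32 and adjusted p = 0.00719 in limma). Ccno, a cyclin relative of multiciliated cells named after its values were seen, was at 0.38 and 0.09 against 8.16 and 3.91 TPM (log2 fold change 2.45 with SE 0.35 and adjusted p = 0.0201 in limma). Mcidas, Deup1 and Ccno were under 1 TPM in each wild type library, so they entered the test only through the homozygous libraries and had to be higher there. Rfx3, an RFX factor that acts with Foxj1 and is made by neurons as well, was at 38.8 and 35.3 against 33.8 and 31.6 TPM and did not pass (limma adjusted p = 0.475).

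Listed genes of primary cilia, the single immotile cilia of progenitors and neurons, gave no calls. Tmem107, a cilium gene outside that list, was called and is described at the end. Of 66 tested genes of the primary cilium and intraflagellar transport, 0 rose and 0 fell in limma with 4 libraries. Their median log2 fold change was 0.16. Both homozygous libraries were above both wild type ones for 30 and below them for 8, against 23.4% and 30.8% of all tested genes. Ift88, an intraflagellar transport gene, was at 14.8 and 11.2 against 13.99 and 11.99 TPM and Dync2li1, a dynein-2 subunit, at 20.6 and 19.9 against 35.3 and 31.1 TPM (limma adjusted p = 0.0581). Both homozygous values of Dync2li1 were above wild type and those of Ift88 overlapped with it.

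Promoters of the risen cilium genes were searched for the letters that RFX factors recognise, since RFX and forkhead factors are the known regulators of this gene group. RefSeq promoters of GRCm38.p6 matched 10811 of 14395 tested symbols and 60 of the 78 risen axoneme genes. The motif GTTGCCA, on either strand in the 250 bases before an annotated start, was found in 9 of those 60 (15%) and in 4.01% of all matched genes. It was in 31 of 255 matched risen genes (12.2%) and in 1 of 43 matched fallen genes (2.33%). The longer GTTGCCATG was in 3 of the 60 (5%) against 0.712% of all, and the forkhead motif GTAAACA in 3 of the 60 (5%) against 2.64%. The SOX motif AACAAAG was in 3 of the 43 fallen genes (6.98%), in 16 of the 255 risen genes (6.27%) and in 4.15% of all, and AACAATG in 2.33%, 1.96% and 2.05% of the same groups. The shorter ACAAAG was in 11 of the 43 fallen genes (25.6%), in 46 of the 255 risen genes (18%) and in 14.5% of all. In all, 8 motifs were counted, some contained in others, and no test was made. A match is a description of letters and not a binding site.

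Stretches around GTTGCCA, or its reverse complement TGGCAAC, are shown for the 6 risen axoneme genes with the largest fold change among those with a match, so that the shared letters in capitals can be seen with their surroundings. Each is given 5′ to 3′ on the gene's own strand, ends before the annotated start, and is the match nearest to that start.
Pifo, chr3:106001498-106001540, minus strand: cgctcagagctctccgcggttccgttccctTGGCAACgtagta
Lrrc23, chr6:124779730-124779796, minus strand: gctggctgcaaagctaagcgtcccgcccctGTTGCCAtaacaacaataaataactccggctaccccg
Cfap44, chr16:44394749-44394798, plus strand: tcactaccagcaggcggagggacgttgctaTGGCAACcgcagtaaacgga
Cfap161, chr7:83794843-83794909, minus strand: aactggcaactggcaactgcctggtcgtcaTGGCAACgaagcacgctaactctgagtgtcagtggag
Tctex1d1, chr4:102978526-102978592, plus strand: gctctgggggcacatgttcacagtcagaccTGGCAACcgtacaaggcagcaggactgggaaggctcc
Tekt1, chr11:72361883-72361927, minus strand: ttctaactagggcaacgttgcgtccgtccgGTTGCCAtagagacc
The Cfap161 stretch carries 3 copies of the reverse complement on its gene's strand, of which the one in capitals is nearest to the start. In the libraries, Cfap44 was at 0.99 and 1.64 against 23.1 and 17.1 TPM. Cfap161 was at 0.39 and 0.3 against 11.5 and 7.92 TPM, Tctex1d1 at 0 and 0.3 against 6.84 and 5.80 TPM and Tekt1, a tektin gene, at 3.16 and 2.65 against 28.8 and 18.4 TPM. All 6 genes were below 4 TPM in wild type and above 5 TPM in homozygous libraries, and these last 4 were named for their promoter match.

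Choroid plexus genes were higher too, with the homozygous replicates far apart. Of 35 listed genes, 34 were in the table and 31 tested, 15 of them with a wild type mean of at least 1 TPM. The other tested members passed the limit only through the homozygous libraries and had to be higher there. Of the 31, 9 rose and 0 fell. The median log2 fold change was 1.79, or 1.40 over the 15. Ttr, encoding transthyretin and the most abundant choroid plexus transcript, was at 3.07 and 2.04 against 6421 and 184 TPM (log2 fold change 8.28 with SE 1.41 and adjusted p = 0.036 in limma). Homozygous replicate 1 had 34.9 times the level of replicate 2, and the heterozygous libraries had 11259 and 4.44 TPM. Folr1, the folate receptor, was at 0.4 and 0.2 against 55.3 and 7.64 TPM (log2 fold change 4.09 with SE 0.77 and adjusted p = 0.0491 in limma), and Calml4 at 0.85 and 0.29 against 29.1 and 14.3 TPM (log2 fold change 3.80 with SE 0.36 and adjusted p = 0.00477 in limma). Kl, encoding the klotho protein, was at 0.43 and 1.06 against 5.74 and 2.10 TPM and did not pass (limma adjusted p = 0.144). Folr1, Calml4 and Kl averaged under 1 TPM in wild type, so they are among the members whose direction the limit fixed.

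Other genes of the choroid plexus list were closer between the homozygous replicates. Slc13a4, a sulphate transporter also made by meninges, was at 2.34 and 0.82 against 10.1 and 14.2 TPM (log2 fold change 2.39 with SE 0.34 and adjusted p = 0.0185 in limma). Enpp2, encoding autotaxin, was at 48.8 and 27.02 against 105 and 91.1 TPM (log2 fold change 1.40 with SE 0.26 and adjusted p = 0.0446 in limma), and Igfbp2 at 147 and 129 against 283 and 240.1 TPM (log2 fold change 0.92 with SE 0.12 and adjusted p = 0.0161 in limma). Enpp2 and Igfbp2 were far above Ttr in both wild type libraries, and which cells made their RNA was not tested. The summed list stood at 570.0 and 431.9 against 7696 and 1114 TPM. In the heterozygous libraries it stood at 13240 and 525.7 TPM. Its calls were 0 with all 6 libraries, 0 without wild type replicate 1, 1 without wild type replicate 2, 15 without homozygous replicate 1 and 26 without homozygous replicate 2. Some choroid plexus cells bear motile cilia, and the part of choroid plexus tissue in the rise of cilium genes was not tested. Between the homozygous libraries the choroid plexus sum differed 6.91 times and the axoneme sum 1.38 times. Most of the choroid plexus sum in homozygous replicate 1 was Ttr, which alone differed 34.9 times, so this ratio leans on 1 gene. By list median, the log2 change from the wild type mean was 2.67 and 0.88 in homozygous replicates 1 and 2 for choroid plexus. For the axoneme it was 2.04 and 1.72.

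**Figure D3:**
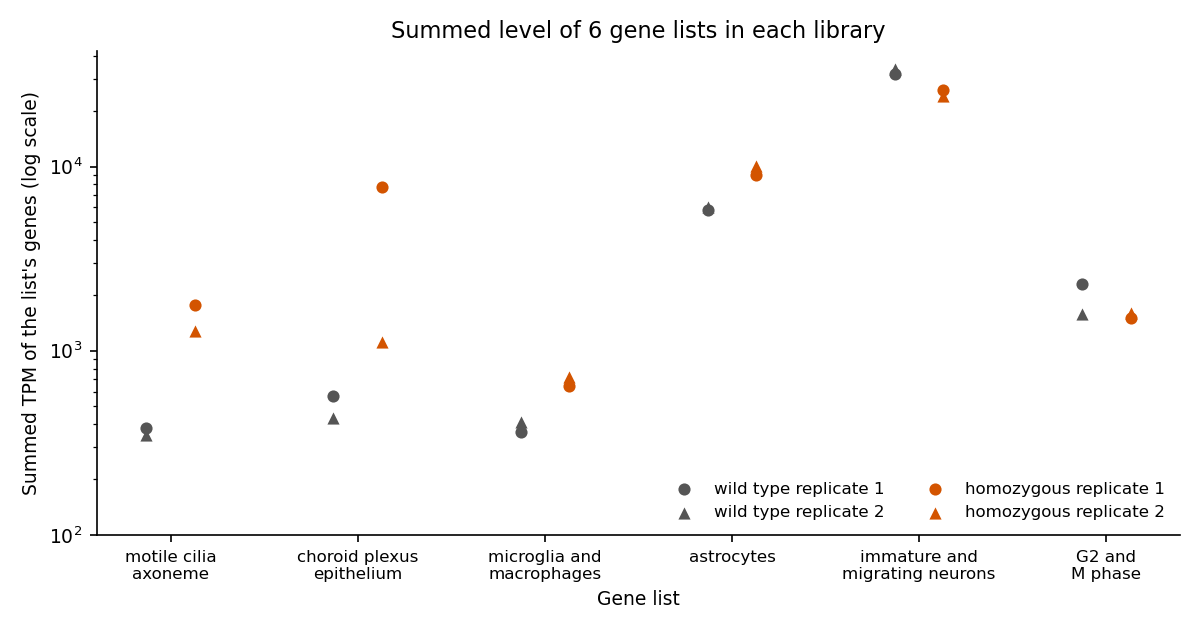
Summed TPM of 6 gene lists in each of the 4 libraries, on a log axis. The axoneme sum rises in both homozygous libraries (1769 and 1278 TPM against 378.9 and 348.1 TPM), while the choroid plexus sum is far higher in homozygous replicate 1 (7696 TPM) than in replicate 2 (1114 TPM). Ttr makes up most of the choroid plexus sum in homozygous replicate 1.

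Genes of the cortical hem and dorsal midline had 3 rises and 0 falls among 17 tested, with a median of 0.83. Their summed level was 488.5 and 364.8 against 452.9 and 542.1 TPM, so the groups overlapped by sum. With a mean of at least 5 TPM, 1 of 13 tested genes rose and the median was 0.58. Msx1, a homeobox target of BMP signalling, was at 3.75 and 2.59 against 28.8 and 17.7 TPM (log2 fold change 2.51 with SE 0.28 and adjusted p = 0.00747 in limma). Bmp4, a BMP ligand, was at 0.86 and 1.18 against 5.61 and 5.62 TPM (log2 fold change 1.72 with SE 0.23 and adjusted p = 0.0156 in limma). Lmx1a, a transcription factor of the hem and roof plate, was at 1.33 and 1.01 against 5.44 and 4.68 TPM (log2 fold change 1.48 with SE 0.23 and adjusted p = 0.0276 in limma). Homozygous libraries were above wild type by more than the replicates differed in all 3. The 3 calls became 0 without wild type replicate 1, 0 without wild type replicate 2 and 5 without homozygous replicate 1. The R-spondins, which strengthen Wnt signalling, were also separated but did not pass, with Rspo1 at 3.61 and 3.17 against 6.78 and 8.88 TPM, Rspo2 at 7.76 and 9.14 against 17.3 and 14.3 TPM and Rspo3 at 5.58 and 4.75 against 12.1 and 8.24 TPM. The hem ligand gene Wnt3a was listed at 0 in the whole wild type pair, was at 0.56 and 0.90 TPM in homozygous ones and was not tested.

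Signalling pathways as wholes gave few calls. Of 28 BMP pathway genes, Bmp4 and Msx1 were the 2 that rose, and the median was 0.14. None of 40 Wnt, 29 Notch or 12 hedgehog genes passed, with medians of 0.05, -0.09 and -0.18. The Wnt effector Lef1, a gene required for the dentate gyrus, was at 23.1 and 14.5 against 9.34 and 10.2 TPM (limma adjusted p = 0.131), and the Wnt target Axin2 at 34.7 and 27.9 against 30.2 and 35.1 TPM, with overlapping groups. The Notch target Hes5 was at 112 and 75.4 against 81.7 and 71.4 TPM and the Notch ligand Dll1 at 19.7 and 14.5 against 13.2 and 9.73 TPM. The series title names progenitor polarity. Of 58 polarity and adherens junction genes, 1 rose, 0 fell and the median was -0.06. That share of risen genes was below the 2.31% of all tested genes. The risen gene was Crb2, an apical Crumbs protein, at 3.03 and 2.42 against 11.7 and 9.55 TPM (log2 fold change 1.64 with SE 0.21 and adjusted p = 0.0149 in limma). The apical protein Pard3 was at 24.4 and 26.4 against 22.2 and 22.7 TPM and N-cadherin, Cdh2, at 158 and 128 against 109 and 101 TPM, neither past the threshold (limma adjusted p = 0.517 and 0.149).

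Astrocyte genes were higher. Of 36 tested, 7 rose and 0 fell, against 2.31% and 0.428% of all tested genes. In this list 33 had a higher mean log2 level and the median was 0.48. The summed level was 5786 and 6018 against 8997 and 10070 TPM, and 9714 and 7896 TPM in the heterozygous libraries. Clu, the secreted chaperone clusterin, was at 83.7 and 96.6 against 309 and 263 TPM (log2 fold change 1.65 with SE 0.13 and adjusted p = 0.00237 in limma). Apoe, the lipid carrier, was at 830.4 and 1107 against 2116 and 2285 TPM (log2 fold change 1.20 with SE 0.16 and adjusted p = 0.0147 in limma). The metallothioneins Mt1 and Mt3 were at 246 and 181 against 477 and 497 TPM and at 334 and 412 against 708 and 618 TPM (log2 fold changes 1.20 and 0.83, limma adjusted p = 0.0134 and 0.031). In these 4 genes the 2 homozygous values were close together and above wild type, and which cells made their RNA was not tested. Mlc1, a membrane protein of astrocyte endfeet, was at 83.1 and 76.8 against 143 and 158 TPM (log2 fold change 0.90 with SE 0.11 and adjusted p = 0.011 in limma), and the gap junction gene Gja1 at 52.1 and 48.3 against 82.7 and 108 TPM (log2 fold change 0.90 with SE 0.15 and adjusted p = 0.0327 in limma). Gfap, Aqp4 and Aldh1l1, which define mature astrocytes, did not pass, with Aqp4 at 42.8 and 42.98 against 40.8 and 80.8 TPM and Aldh1l1 at 22.4 and 27.8 against 27.1 and 40.7 TPM. Calls in this list were 0 with all 6 libraries, 1 and 4 without either wild type replicate, and 13 and 5 without either homozygous replicate.

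Microglia, the resident macrophages of the brain, had 7 rises and 0 falls among 32 genes, against 2.31% and 0.428% of all tested genes. All 32 had a higher mean log2 level, with a median of 0.60, and the summed level was 362.1 and 412.4 against 644.4 and 721.8 TPM. Heterozygous libraries had sums of 823.5 and 550.8 TPM, also above both wild type libraries. Csf1r, the receptor microglia need to survive, was at 14.7 and 16.6 against 32.9 and 33.5 TPM (log2 fold change 1.04 with SE 0.14 and adjusted p = 0.016 in limma). The complement genes C1qa, C1qb and C1qc, whose products form 1 complex, were at 32.1 and 33.9 against 61.9 and 71.1 TPM, at 32.8 and 35.6 against 66 and 63.7 TPM and at 30 and 32.01 against 62.6 and 61.9 TPM (log2 fold changes 0.98, 0.90 and 0.98). The 3 subunit genes rose by nearly the same factor. Tyrobp, a signalling adaptor, was at 23.4 and 28.3 against 47.4 and 49.7 TPM (log2 fold change 0.89 with SE 0.14 and adjusted p = 0.0272 in limma), and Lyz2, lysozyme of myeloid cells, at 11.8 and 9.13 against 21.4 and 29.5 TPM (log2 fold change 1.20 with SE 0.21 and adjusted p = 0.0392 in limma). The calls were 0 with all 6 libraries, 0 and 2 without either wild type replicate, and 6 and 3 without either homozygous replicate. Radial glia, from which astrocytes arise, had no call among 28 genes, a median of 0.17 and Pax6 at 28.9 and 20.1 against 22.9 and 23.2 TPM, with overlapping groups.

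Oligodendrocyte lineage genes had 1 call among 25, Bmp4, which that list shares with the hem list, and a median of 0.56. Olig1 was at 75.8 and 119 against 161 and 165 TPM (limma adjusted p = 0.11) and the myelin gene Mbp at 13.9 and 35.7 against 17.5 and 76.2 TPM, with overlapping groups. Meningeal and blood markers overlapped between the genotypes. The meningeal collagen Col1a1 was at 21.7 and 9.19 against 3.36 and 37.9 TPM and the summed meningeal list at 789.2 and 395.2 against 360.5 and 2045 TPM. Haemoglobin Hba-a1 was at 343 and 198 against 270.5 and 285 TPM. No gene of the meningeal, endothelial, erythroid, GABAergic or thalamic lists passed.

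Cell cycle genes were lower without passing. None of 59 S phase genes or 62 G2 and M phase genes was called, although 57 and 60 of them had a lower mean log2 level, with medians of -0.32 and -0.49. Mcm7, a subunit of the replicative helicase, was at 101 and 73.2 against 52.6 and 56.4 TPM and Rrm2, a ribonucleotide reductase subunit, at 59.3 and 43.05 against 24.7 and 31.4 TPM. Mki67 and Top2a, both of mitotic cells, were at 38.9 and 21.5 against 16.9 and 18.5 TPM and at 90.8 and 57.5 against 43.4 and 48.6 TPM. Wild type replicate 1 was the highest library for all 4 of these genes. Without wild type replicate 1 the medians of the lists were -0.15 and -0.16, and without wild type replicate 2 they were -0.46 and -0.82. Cajal-Retzius genes leaned on the same library, with a median of -0.45 that became -0.11 without it. Its omission also moved the medians of intermediate progenitors to -0.18, neuronal RNA-binding proteins to -0.12, semaphorins to -0.20, tubulins to -0.12, netrin and Slit genes to -0.012 and hedgehog genes to 0.085. Of the 44 lists, 17 had a median that changed sign when 1 library was left out, all of them with medians between -0.181 and 0.179 over the 4 libraries.

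**Figure D4:**
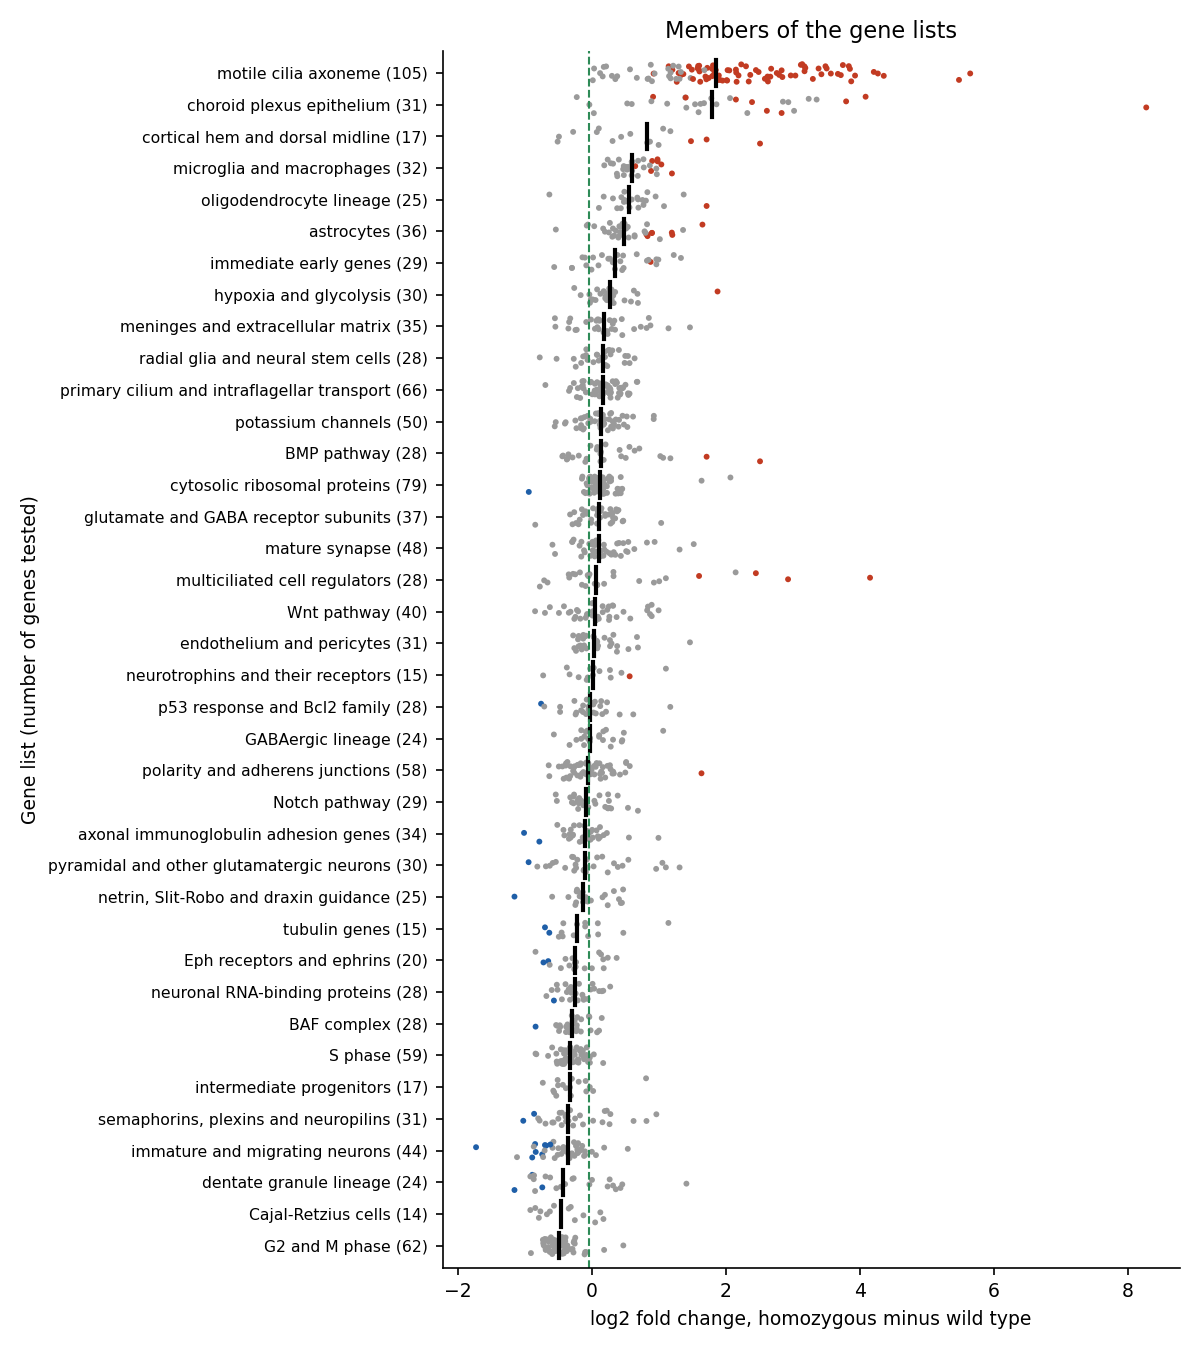
Log2 fold change, homozygous minus wild type, of every tested member of the gene lists with at least 14 tested genes, ordered by median (black bar). Red points rose, blue points fell, grey points did not pass, and the dashed green line is the median of all tested genes, -0.04; the axoneme list lies farthest right with 78 of 105 genes risen.

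Other families had single calls or none. In the BAF chromatin remodelling complex, which changes subunits as progenitors become neurons, 1 of 28 genes fell and 25 were lower, with a median of -0.29. That gene was the neuronal subunit Dpf3, at 53.8 and 45.2 against 25.6 and 28.8 TPM (log2 fold change -0.84 with SE 0.14 and adjusted p = 0.0348 in limma), while the core subunit Smarce1, at 162 and 135 against 103 and 102 TPM, did not pass (limma adjusted p = 0.0817). Of 15 neurotrophin and receptor genes, Ntrk2, the BDNF receptor, rose from 70.5 and 76.6 to 105 and 114 TPM (log2 fold change 0.57 with SE 0.11 and adjusted p = 0.0487 in limma). The glial factor receptor Gfra2 was at 32.4 and 27.7 against 18.9 and 16.7 TPM and did not pass (0.066). The neurotrophin list had 0 calls with all 6 libraries, a pseudocount of 0.1, a mean of at least 5 TPM or median-of-ratios scaling. It also had 0 without an intensity trend and with the replicate block. Among 29 immediate early genes Dusp6, a phosphatase induced by ERK signalling, rose from 14.5 and 17.9 to 30.1 and 30.9 TPM (log2 fold change 0.88 with SE 0.15 and adjusted p = 0.038 in limma). The BAF and immediate early lists each had 0 calls with all 6 libraries, without an intensity trend and with the replicate block. Of 30 hypoxia and glycolysis genes 1 rose, Car9, a carbonic anhydrase, from 0.04 and 0.05 to 2.51 and 3.21 TPM (log2 fold change 1.88 with SE 0.26 and adjusted p = 0.0176 in limma). Car9 was under 1 TPM in each wild type library, so it entered the test only through the homozygous libraries and had to be higher there. The hypoxia list had 0 calls with all 6 libraries and 0 with a mean of at least 5 TPM. Mature synapse, potassium channel, and glutamate and GABA receptor lists had no call among 48, 50 and 37 genes.

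The largest falls outside the families above were spread over functions. Leaving aside predicted genes and genes with clone-derived names, several of which fell more and lie near Sox11, the largest falls after Sox11 and Gpc2 included Rnf152, a ubiquitin ligase gene, at 31.2 and 23.9 against 11.4 and 10.2 TPM (log2 fold change -1.27 with SE 0.18 and adjusted p = 0.0195 in limma). Carhsp1, an RNA-binding cold shock protein gene, was at 178 and 143 against 72.2 and 60.5 TPM (log2 fold change -1.26 with SE 0.15 and adjusted p = 0.00978 in limma). Both genes had homozygous values below 75 TPM and well under the lower wild type value. Slco5a1 was at 17.9 and 14.8 against 7.39 and 6.16 TPM, Rgs6, a regulator of G protein signalling, at 48.7 and 35.7 against 19.3 and 20.6 TPM, Sh3bp2 at 41.2 and 32.8 against 20.3 and 17.9 TPM and Ddah2 at 317 and 242 against 154 and 144 TPM. Among the 15 largest rises outside cilium and choroid plexus lists was Dmkn, an epithelial secreted protein gene, at 0.1 and 0.33 against 29.98 and 17.99 TPM (log2 fold change 4.33 with SE 0.29 and adjusted p = 0.0017 in limma). Dmkn was under 1 TPM in each wild type library, so it entered the test only through the homozygous libraries and had to be higher there.

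Genes near Sox11 on chromosome 12 fell more often than genes elsewhere. Within 5 Mb of the Sox11 start, 8 of 44 tested genes other than Sox11 fell (18.2%) and 0 rose, against 48 of 13950 genes on other chromosomes (0.344%). From 5 to 10 Mb away, 3 of 40 fell and 2 rose; from 10 to 20 Mb, 0 of 50 fell; and beyond 20 Mb, 2 of 405 fell (0.494%). Except for Rps7, the fallen neighbours lie on the side of lower coordinates and are pseudogenes or genes with clone-derived or provisional names, whose levels are uncertain because reads can be shared with near-identical copies. AC166358.6, 4.75 Mb from Sox11, was at 15.9 and 14.8 against 3.91 and 3.93 TPM (log2 fold change -1.73 with SE 0.18 and adjusted p = 0.00625 in limma), and AC166341.5 at 14.1 and 15.9 against 3.74 and 3.42 TPM. The nearest on that side, 9030624G23Rik at 3.25 Mb, was at 16.4 and 15.3 against 6.82 and 5.99 TPM (log2 fold change -1.19 with SE 0.17 and adjusted p = 0.0209 in limma), and CT030170.3, 9.32 Mb away, at 22.4 and 23.9 against 4.57 and 6.57 TPM. In each of these 4 genes both homozygous values were far below the lower wild type value. Linkage to the floxed locus and the loss of Sox11 cannot be told apart in this design.

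**Figure D5:**
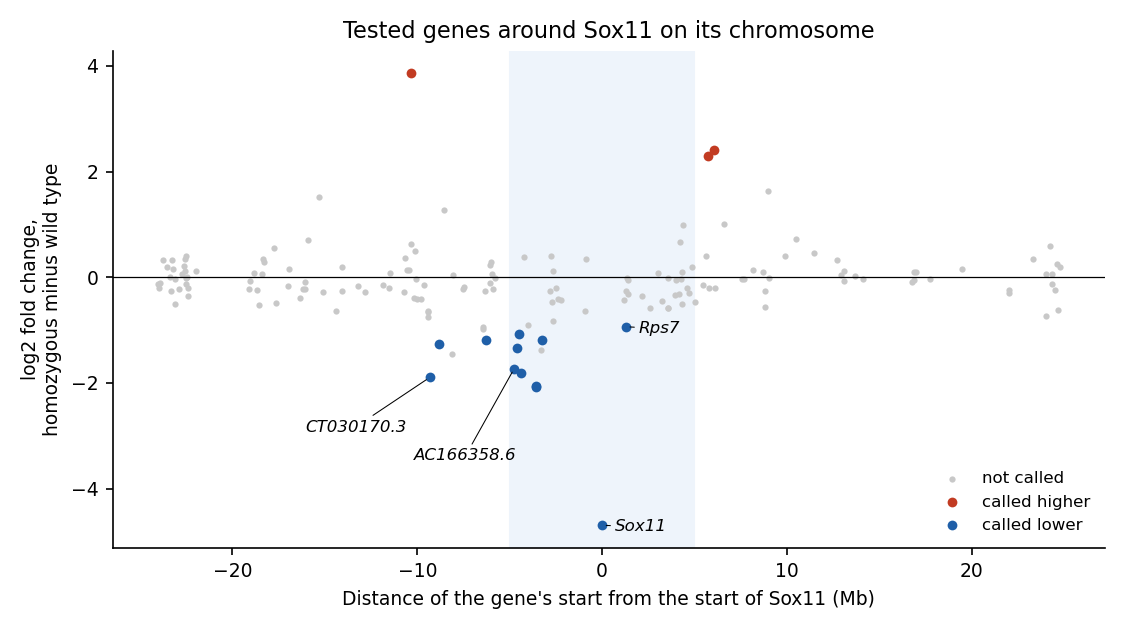
Log2 fold change, homozygous minus wild type, of tested genes on chromosome 12 against the distance of their start from the Sox11 start, up to 25 Mb on either side, with the 5 Mb window shaded. The fallen genes (blue) lie within 10 Mb of Sox11, most of them on the left.

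Rps7, a ribosomal protein gene 1.29 Mb from Sox11 (chromosome 12, 28630854 to 28635953), was at 1919 and 1958 against 1014 and 1009 TPM (log2 fold change -0.94 with SE 0.10 and adjusted p = 0.00719 in limma). Gm6472, a processed copy of Rps7 on chromosome X (152909505 to 152910155), moved the other way, being at 0.03 and 1.95 against 1656 and 1601 TPM (log2 fold change 9.87 with SE 0.43 and adjusted p = 0.000888 in limma). Reads of such near-identical copies can be assigned to either, so the levels of both are uncertain, and heterozygous libraries were at 1726 and 1738 TPM for Rps7 and 767 and 824 TPM for Gm6472. The wild type mean of Gm6472 was under 1 TPM, so it entered the test only through the homozygous libraries. Rps7 was the 1 gene called among 79 cytosolic ribosomal protein genes, of which 64 had a higher mean log2 level and whose median was 0.12.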

How the data were processed

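Poly(A) RNA of dentate neuroepithelium was sequenced by the authors, and the values used are TPM, which the authors deposited as 1 table. The labels' design text names TopHat 2.0.11, Cufflinks 2.2.1 and the build mm10, whereas the submitters' processing notes name FastQC and RSEM with mm10 and GRCm38 and no versions. Sequencing depth cannot be read from TPM and is unknown, which is why values carry no counting interval. Each library had 18722 to 19408 genes above 0, and mitochondrial genes took 10.1% to 14.2% of TPM.

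Values were transformed to log2(TPM + 1), which compresses changes of faint genes. Genes averaging at least 1 TPM in the 4 libraries were fitted with limma 3.58.1 in R 4.3.3 (eBayes with an intensity trend, 2 residual degrees of freedom) and adjusted by Benjamini-Hochberg over all 14490 genes, with a threshold of 0.05. Every log2 fold change is on this scale. Of the tested rows, 202 repeat the values of another row, 2 of them called. Python 3.11.15, pandas 2.3.3 and matplotlib 3.10.9 made the summaries. Positions came from GENCODE vM21 on GRCm38, which matched 34845 rows, and promoters from RefSeq on GRCm38.p6.

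The comparison and the 44 gene lists (1419 genes) were chosen with earlier results of these data known, and lists overlap. Lists are described by counts and medians, with no set test. Named genes were Sox11, Sox4 and Sox12, anchor genes of each list, the 15 largest changes in each direction among called genes averaging at least 5 TPM whose genotypes did not overlap (skipping predicted-gene symbols and mitochondrial transcripts), up to 6 members per list with the smallest p and such a mean, and the called genes nearest to Sox11. Some genes that this rule names are not reported here. Others are said to be named after their values were seen, apart from markers of the labelled tissue and its neighbours, further members of a list given as values, and genes named for a promoter match. Alternatives were other pseudocounts, filters, scalings, no trend, a replicate block, all 6 libraries and leaving out each library.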

Additional observations from a re-analysis of the deposited data

How the results depend on the processing

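With all 6 libraries 3 genes rose and 3 fell, in place of 334 and 62. With no filter on low values 62 rose and 54 fell, of which 1 was shared with the main calls, and Sox11 kept its log2 fold change of -4.694 at a limma adjusted p of 0.1316; the cause was not tested. With a mean of at least 5 TPM, 167 of 11917 genes rose and 51 fell, fewer genes being tested. Median-of-ratios scaling gave 275 and 37, and moved the median of all genes from -0.04 to 0.00. Without an intensity trend 303 rose and 21 fell, which moved the share of risen genes among the calls from 84.3% to 93.5%; that share was 3 of 6 calls with all 6 libraries, 53.5% with no filter and 72.6% without wild type replicate 2. A pseudocount of 0.1 gave 334 and 61, and TPM summed again without Ttr, haemoglobin, mitochondrial and pseudogene rows gave 354 and 58. Leaving out 1 library at a time gave 21 to 452 risen and 2 to 85 fallen genes, lowest without wild type replicate 1; the lone library left in a group is then assumed to vary like the others. Of 86 named genes besides Sox11 that rose or fell, 8 kept their call without wild type replicate 1, 28 without wild type replicate 2, 77 without homozygous replicate 1 and 67 without homozygous replicate 2, and no called gene changed direction under an alternative listed here. Of 50 named genes that did not pass, 11 changed direction when 1 library was left out. Their log2 fold changes over those omissions ranged from -0.21 to 0.062 in Sox12, -0.20 to 0.077 in Robo1, -0.077 to 0.092 in L1cam, -0.18 to 0.20 in Ift88, -0.089 to 0.21 in Axin2, -0.55 to 0.018 in Hes5, -0.070 to 0.90 in Aqp4, -0.31 to 0.19 in Pax6, -0.34 to 1.72 in Mbp, -1.80 to 1.36 in Col1a1 and -0.30 to 0.49 in Hba-a1. With the replicate number as a block 266 genes rose and 62 fell, 284 of the 328 shared with the main calls. Across genes, deviations of same-numbered wild type and homozygous libraries correlated at -0.0865, so the numbers are not taken to pair the libraries. The mitochondrial share nevertheless differed in the same direction by replicate number in each genotype. The unknown depth leaves the precision of the lowest TPM values unknown.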

Other observations

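Among the risen genes 223 belonged to none of the gene lists, and among the fallen genes 39. The following were picked after their values were seen. Anxa1 and Anxa2, annexins that bind membranes in a calcium-dependent way, rose from 1.40 and 0.8 to 14.6 and 12.1 TPM and from 32.3 and 24.9 to 52.6 and 67.3 TPM (2.78 and 1.04 on the log2 scale, limma adjusted p = 0.00333 and 0.0359). Wls, the carrier that Wnt proteins need for secretion, rose from 14.9 and 10.3 to 42.2 and 61.9 TPM (log2 fold change 1.96 with SE 0.24 and adjusted p = 0.0115 in limma). Tmem107, a transition zone gene of cilia, rose from 13.3 and 10.2 to 52.02 and 32.6 TPM (log2 fold change 1.73 with SE 0.24 and adjusted p = 0.0186 in limma). In all 4 genes both homozygous libraries were above both wild type ones.

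Among the fallen genes outside the lists, Mycl, a MYC family transcription factor gene, was at 98.7 and 87.7 against 58.02 and 49.1 TPM (log2 fold change -0.79 with SE 0.13 and adjusted p = 0.0312 in limma). Mapk8, encoding the kinase JNK1 that acts on cytoskeletal proteins of young neurons, was at 163 and 156 against 109 and 99.3 TPM (log2 fold change -0.61 with SE 0.10 and adjusted p = 0.0338 in limma). Both changes were smaller than those of the axon guidance genes Draxin and Cntn2 and larger than the gap between replicates.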
